A study of Mus musculus with 4 samples.

Results

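The genes described here build, store and break down fat: 44 genes of fatty acid uptake and carriage, fatty acid synthesis, desaturation and elongation, triglyceride assembly, lipid droplets and lipolysis. They were taken by symbol from a list made with earlier results of these data in view, and all 44 were found among the 55536 rows of the deposited table. Of these, 39 had at least 1 CPM (the usual depth-scaled read count, here on library totals times a scaling factor) in at least 2 libraries and entered the test, as did 12838 rows of the table in all. The 5 left out were Cd36, Mlxipl, Thrsp, Mogat2 and Cidec.

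RNA sequencing was done on the stromal vascular fraction (the cells left after fat tissue is digested and its floating adipocytes are taken off) of inguinal white adipose tissue from wild-type male mice at postnatal day 21. The 4 libraries, each a pool of 3 mice, came from LnF1 mice on water, LnF1 mice on 1,3BD, ObF1 mice on water and ObF1 mice on 1,3BD. The names LnF1 and ObF1 stand for offspring groups in a series on obesity of the parents, and 1,3BD is written as in the labels, which give neither its dose nor its duration. No combination of parents and drink had a second library, so the error of a difference comes from an additive model and measures how unlike a difference was between drinks or between parental groups, moderated across genes. Depth was between 24586827 and 26000090 recovered reads per library, so that 1 read was worth 0.0359 to 0.0434 CPM and 0 reads allow at most 0.130 CPM. That limit and the intervals of folds below cover counting error only.

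Defining genes of mature fat cells were at or near 0. Among 8 markers of mature adipocytes, Adipoq, Lep and Ucp1 had 0 reads in every library, and the summed level of the 8 was 2.76 and 5.26 CPM on water and 6.10 and 2.96 CPM on 1,3BD, LnF1 before ObF1. The 7 fibroblast and adipose progenitor markers summed to 26807 and 27510 CPM on water and to 12829 and 9320 CPM on 1,3BD, a sum carried by the collagens Col1a1 and Col3a1. The progenitor marker Pdgfra had 243 and 236 CPM on water and 281 and 412 CPM on 1,3BD and did not pass. The 3 epithelial markers summed to at most 0.174 CPM. The 6 endothelial markers summed to 7.17 and 18.6 CPM in the water libraries of LnF1 and ObF1 and to 1.18 and 2.70 CPM in the 1,3BD libraries, and the 6 macrophage markers to 20.1 and 14.6 CPM against 4.16 and 8.32 CPM. In the same order, the 5 mural markers summed to 7867 and 8365 CPM against 121 and 179 CPM. That sum was carried by Acta2, with 7692 and 8097 CPM against 113 and 165 CPM. Acta1, the skeletal muscle actin, had 86.5 and 61.8 CPM against 1.83 and 1.87 CPM. The other muscle markers were at or near 0, Myh4 with 0 reads and Ckm with 1 read in all. Mitochondrially encoded genes took 1.128% and 1.296% of reads against 2.78% and 5.80%. Called lower with 1,3BD were 3 of 3 endothelial, 2 of 3 macrophage and 5 of 5 mural markers tested. So were 1 of 1 muscle and 1 of 6 fibroblast and progenitor markers, beside 24.8% of all genes tested. Pecam1, Emcn and Cspg4 reached 1 CPM only in the water libraries and entered the test through them, so these counts are a description. The part of these cells in the differences below was not tested. In bulk RNA, fewer cells of a type and less RNA per cell cannot be told apart.

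A fat cell takes up fatty acids that lipoprotein lipase frees from circulating triglyceride, or makes them from citrate through ATP-citrate lyase, acetyl-CoA carboxylase and fatty acid synthase. Stearoyl-CoA desaturases, fatty acid desaturases and elongases then shape the chains. Acyl-CoA synthetases activate them, and the glycerol phosphate pathway joins them into triglyceride. The droplet that stores it is coated with perilipins, and lipolysis releases the fatty acids again through adipose triglyceride lipase, hormone-sensitive lipase and monoglyceride lipase in turn. Progenitors of the stromal vascular fraction turn many of these genes on as they become adipocytes.

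Levels differed widely within the list. Per kilobase of exon, over the 4 libraries, the highest were Scd2 with a mean of 336 CPM per kilobase, Scd1 with 239 and Lpl with 80.0, followed by Acly with 53.7 and Acsl4 with 53.1. The lowest tested were Plin1 with 0.380, Plin4 with 0.581 and Acacb with 0.597 CPM per kilobase. Summed over the 44 genes, the level was 4170 and 4341 CPM in the water libraries of LnF1 and ObF1 and 9415 and 9065 CPM in the 1,3BD libraries. In both 1,3BD libraries Scd1, Scd2 and Lpl together made up most of that sum (63.7% in LnF1 and 66.3% in ObF1). Without the 3 highest genes of each library the sums were 2389 and 2354 CPM in water against 3421 and 3058 CPM in 1,3BD. The 3 highest were Scd2, Lpl and Fasn in LnF1 water and Scd2, Fads3 and Acly in ObF1 water. These sums therefore leave out different genes.

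**Figure D1:**
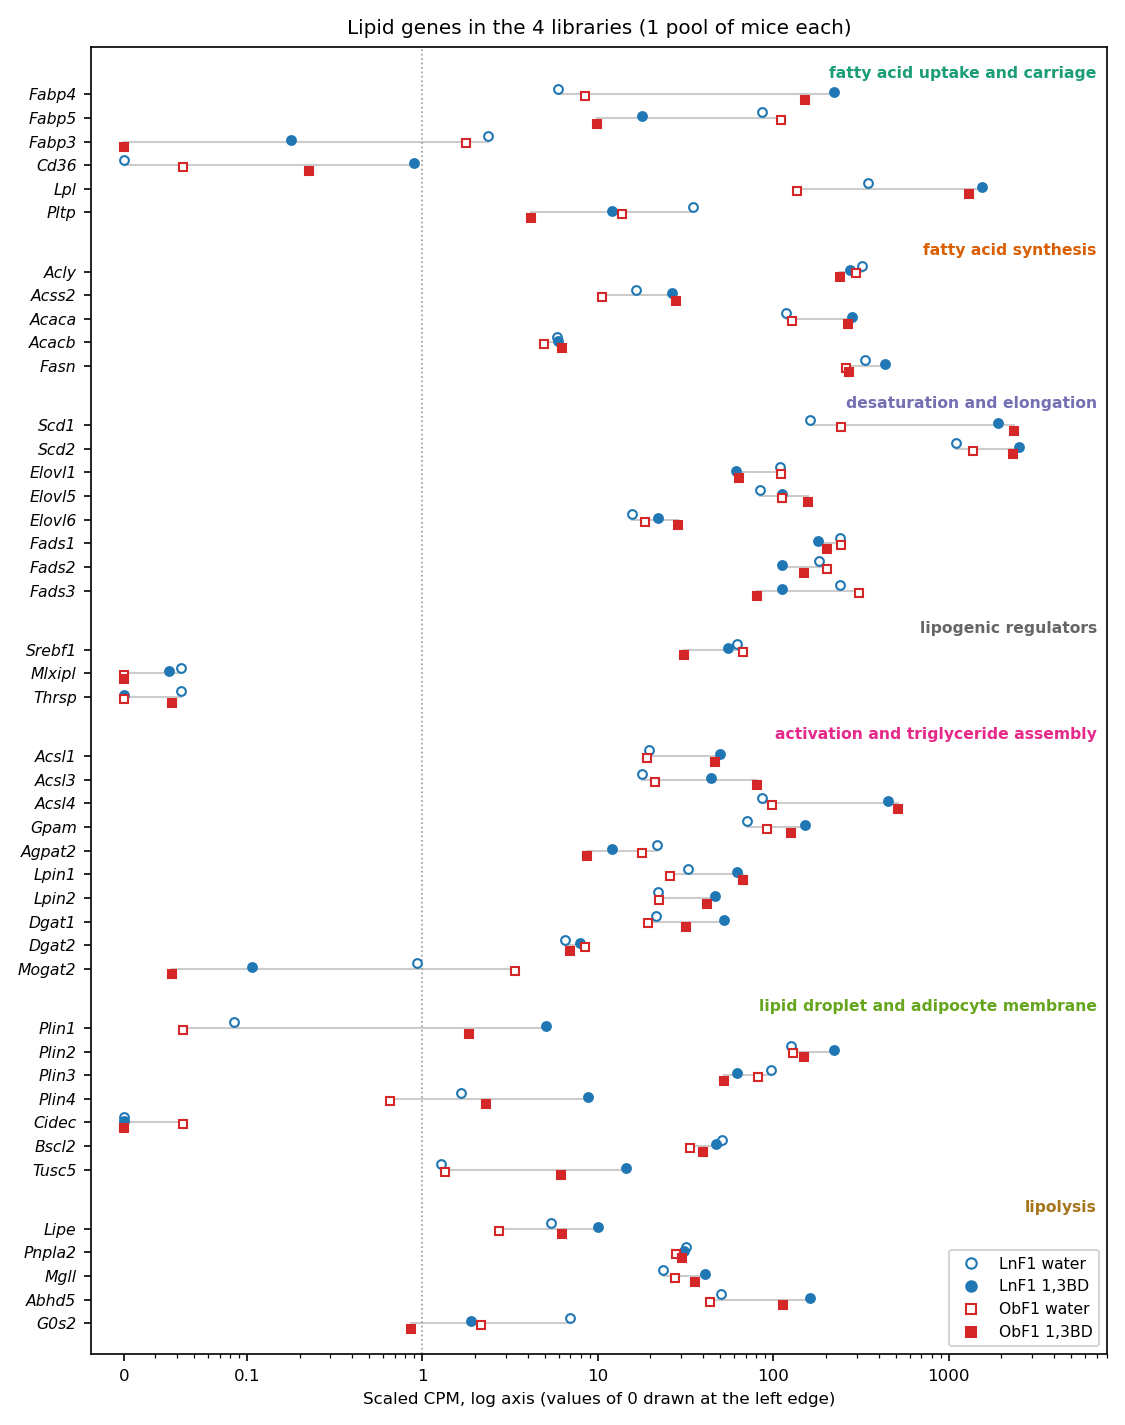
Scaled CPM of the 44 lipid genes in each library, on a log axis, grouped by role; circles are LnF1, squares ObF1, open symbols water and filled symbols 1,3BD, and values of 0 are drawn at the left edge. Fabp4, Scd1, Lpl, Acsl4 and Plin1 have both filled symbols to the right of both open ones, while Fabp5, Fabp3 and Fads3 have them to the left.

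The first comparison asked how the 1,3BD libraries differ from the water libraries. Calls went both ways within most roles. Fabp4 rose 37.6-fold in LnF1 and 17.8-fold in ObF1, Scd1 11.8-fold and 9.75-fold, Lpl 4.48-fold and 9.58-fold, and Acsl4 5.21-fold and 5.20-fold. Fabp5, Fabp3, Pltp, Fads3 and G0s2 fell. Agpat2, Elovl1, Fads2 and Plin3 fell as well. Of the 39 genes tested, 18 rose, 9 fell and 12 did not pass (limma, Benjamini-Hochberg adjusted p under 0.05 over all 12838 genes). Over all genes tested, 19.2% were called higher and 24.8% lower. Plin1 and Fabp3 reached 1 CPM only in the drink where they were high, so they entered the test through their own difference, and the counts are a description. The median log2 difference of the 39 genes was 0.56, against -0.06 over all genes tested. These shares describe the list and do not test it. Under library totals without scaling factors, which move the median gene by 0.248 (log2) between drinks, 22 of the 39 genes were called higher and 7 lower, beside 28.5% and 17.8% of all genes.

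The drink differences of LnF1 and ObF1 share no library. They had the same sign in 36 of the 39 genes, where 82% of all genes tested did. The exceptions were Dgat2, Bscl2 and Pnpla2, none of which passed. In both parental groups, 11 of the 39 genes were higher by at least 1 log2 unit, beside 7.37% of all genes tested, and 5 were lower by as much, beside 12.6%.

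**Figure D2:**
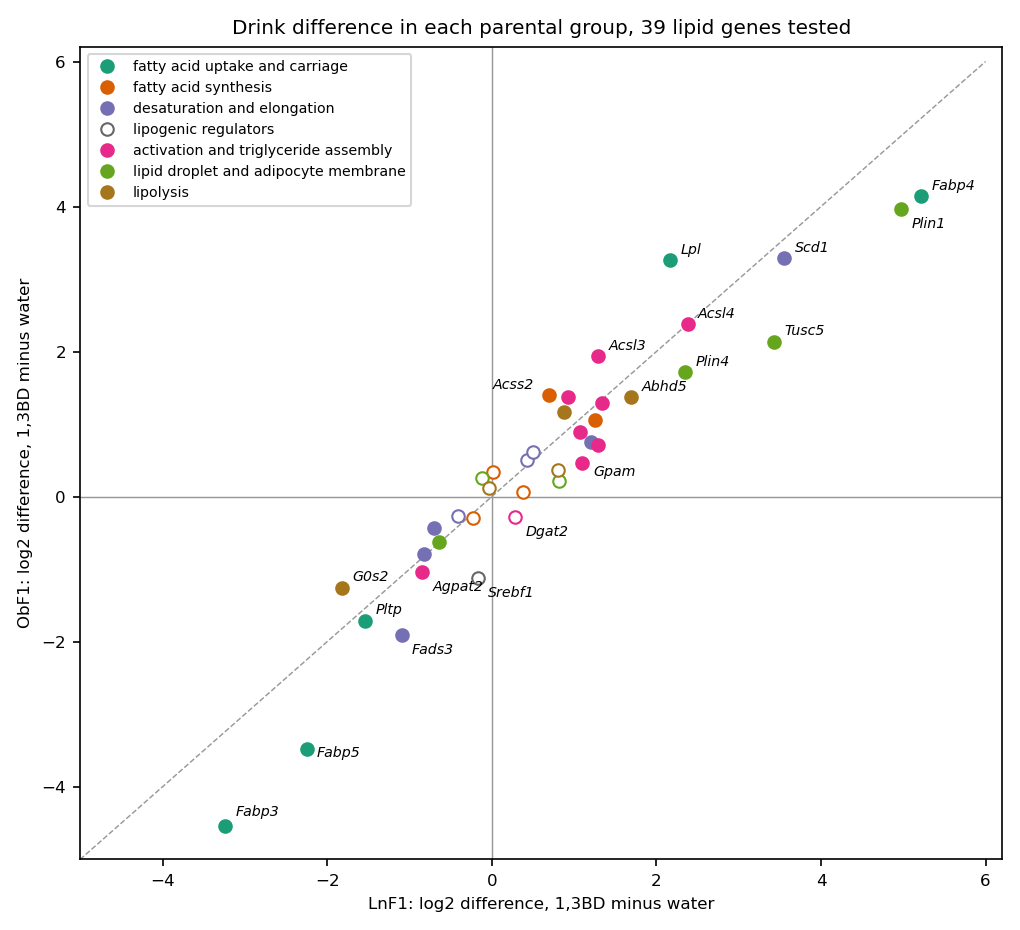
Log2 difference between the 1,3BD and the water library in LnF1 (horizontal axis) and in ObF1 (vertical axis) for the 39 lipid genes tested, coloured by role; filled points passed the limma test, open points did not, and the dashed line marks equal differences. Fabp4, Plin1 and Scd1 lie farthest up and right, and Fabp3 and Fabp5 farthest down and left.

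Of the 44 genes, 34 were matched by symbol to RefSeq promoters on GRCm38.p6, the build also known as mm10. Fabp4, Fabp5, Lpl, Scd1, Scd2, Fads1, Dgat1, Dgat2, Mogat2 and Tusc5 were not matched. For the others the 250 bases before each start were read for 6 short motifs on both strands. The windows of 3 genes that rose, 2 that fell and 1 that did not pass are shown 5′ to 3′ on the strand of the gene, so that motifs of genes that moved in different directions can be compared, with every match in capitals. They are Abhd5 (chr9:122351366-122351615, plus strand), Lpin1 (chr12:16610967-16611216, minus strand), Acsl4 (chrX:142390536-142390785, minus strand), Fads3 (chr19:10041298-10041547, plus strand), Pltp (chr2:164857709-164857958, minus strand) and Fasn (chr11:120824548-120824797, minus strand).
Abhd5: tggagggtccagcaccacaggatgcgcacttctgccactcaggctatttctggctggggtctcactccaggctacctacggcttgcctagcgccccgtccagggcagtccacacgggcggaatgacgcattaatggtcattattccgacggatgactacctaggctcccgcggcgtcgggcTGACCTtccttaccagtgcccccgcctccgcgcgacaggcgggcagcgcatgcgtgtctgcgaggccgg
Lpin1: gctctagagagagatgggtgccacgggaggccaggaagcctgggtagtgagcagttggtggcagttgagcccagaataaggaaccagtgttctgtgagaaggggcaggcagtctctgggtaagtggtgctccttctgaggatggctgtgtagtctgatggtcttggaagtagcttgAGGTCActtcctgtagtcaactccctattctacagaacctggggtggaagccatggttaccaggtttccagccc
Acsl4: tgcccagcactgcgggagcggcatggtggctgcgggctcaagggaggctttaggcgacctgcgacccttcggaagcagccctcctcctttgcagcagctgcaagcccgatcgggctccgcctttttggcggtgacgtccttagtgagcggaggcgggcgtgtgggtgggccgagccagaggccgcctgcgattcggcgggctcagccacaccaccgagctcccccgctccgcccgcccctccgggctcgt
Fads3: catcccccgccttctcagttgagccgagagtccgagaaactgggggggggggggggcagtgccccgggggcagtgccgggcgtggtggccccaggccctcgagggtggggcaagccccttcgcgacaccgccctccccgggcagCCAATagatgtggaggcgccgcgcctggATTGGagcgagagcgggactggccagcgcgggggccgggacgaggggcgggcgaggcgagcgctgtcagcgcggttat
Pltp: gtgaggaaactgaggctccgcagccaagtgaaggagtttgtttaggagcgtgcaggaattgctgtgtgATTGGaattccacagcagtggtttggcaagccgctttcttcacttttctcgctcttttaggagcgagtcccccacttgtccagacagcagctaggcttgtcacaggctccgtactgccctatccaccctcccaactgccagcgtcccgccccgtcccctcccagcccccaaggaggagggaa
Fasn: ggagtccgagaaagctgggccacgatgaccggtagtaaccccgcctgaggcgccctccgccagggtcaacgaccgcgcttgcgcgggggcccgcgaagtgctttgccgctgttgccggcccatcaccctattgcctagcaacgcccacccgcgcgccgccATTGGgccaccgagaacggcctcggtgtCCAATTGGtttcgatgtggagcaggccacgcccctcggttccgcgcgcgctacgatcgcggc

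The capitals in Abhd5 and Lpin1 are AGGTCA, the nuclear receptor half-site, on the minus and plus strand of the window, beginning 69 and 74 bases before the start. Those in Fads3, Pltp and Fasn are CCAAT or its complement, the box bound by NF-Y, and Fasn holds 3 of them, of which 2 overlap on opposite strands. Acsl4 held none of the 6. AGGTCA was present in 9 of the 34 genes, in 3 of the 12 that rose, 1 of the 8 that fell and 4 of the 10 that did not pass, beside 14.0% of all 32851 windows. CCAAT was present in 19 of the 34, in 6 of 12, 4 of 8 and 6 of 10 in the same order, beside 33.9% of all windows. CACGTG, an E-box, was found in Elovl5, Lipe, Lpin2, Mgll and Mlxipl (6.02% of all windows), and TATAAA in Acacb (12.4%). A single exact string of a sterol regulatory element, whose variants were not searched, and TGACGTCA, a cAMP response element, were in none of these windows (0.07% and 1.55% of all). A gene with several listed starts counts once if any of its windows holds the motif, whereas the shares of all windows count each start, so these are descriptions on unequal units, and a match is neither a binding site nor a cause.

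Genes of uptake and carriage split, with 2 higher, 3 lower and 1 not tested of 6. The shares of all genes tested were 19.2% higher and 24.8% lower. Fabp4 (chromosome 3, 10204088 to 10208576, minus strand, mm10), the intracellular fatty acid carrier of adipocytes, stood at 5.94 CPM in LnF1 water and 8.47 CPM in ObF1 water, and at 223 CPM in LnF1 1,3BD and 151 CPM in ObF1 1,3BD. Its log2 difference was 4.68 (SE 0.27, limma adjusted p = 1.15e-06). Fabp5 (chromosome 3, 10012548 to 10016607, plus strand), the carrier first described in skin, went the other way, with 86.0 and 111.5 CPM in the water libraries of LnF1 and ObF1 and 18.0 and 9.94 CPM in the 1,3BD libraries. Its log2 difference was -2.86 (SE 0.29, limma adjusted p = 7.19e-05). The water and 1,3BD libraries did not overlap for either gene, and the level of Fabp4 per kilobase of exon was 0.0549 and 0.0604 times that of Fabp5 in the water libraries of LnF1 and ObF1 and 9.85 and 12.1 times in the 1,3BD libraries. Fabp5 and the Scd genes have close relatives in the genome, whose reads the counting could have split, so their levels are uncertain to that extent. Fabp3, the carrier of heart and muscle, was scarce, with 2.38 and 1.78 CPM in the water libraries of LnF1 and ObF1 and 0.179 and 0 CPM in the 1,3BD libraries (log2 difference -3.90, SE 0.58, given without a p because only its water libraries brought it past the filter). It was 13.3-fold lower with 1,3BD in LnF1, on 5 against 56 reads, and at least 15.8-fold lower in ObF1 against a floor of 3 reads. Of the muscle markers given above, Myh4 and Ckm were at or near 0, while Acta1 fell with 1,3BD (log2 difference -5.24, SE 0.26). The cell source of Fabp3 was not tested. Exons of Fabp3 share 19.6% of their bases with other genes, whose part was not tested.

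Lpl (chromosome 8, 68880491 to 68907448, plus strand), which encodes lipoprotein lipase, had 347 CPM in LnF1 water and 137 CPM in ObF1 water, and 1555 and 1314 CPM in the respective 1,3BD libraries. The log2 difference was 2.71 (SE 0.27, limma adjusted p = 4.48e-05). Both 1,3BD libraries were above both water libraries. Gpihbp1, which anchors that lipase to capillary endothelium, had 0 reads in every library. Endothelial cells also express Fabp4, and macrophages express Fabp4 and Lpl. The part of these cells in both differences was not tested. Cd36, a fatty acid transporter of adipocytes, endothelium and macrophages, was nearly absent, with 0 and 0.0434 CPM in the water libraries of LnF1 and ObF1 and 0.896 and 0.225 CPM in the 1,3BD libraries. It was at least 7.04-fold higher with 1,3BD in LnF1 against a floor of 3 reads, and in ObF1 6 reads stood against 1, a ratio of 5.18 with a 95% counting interval of 0.628 to 238. Pltp, which encodes the phospholipid transfer protein of plasma lipoproteins, had 35.1 and 13.8 CPM in the water libraries of LnF1 and ObF1 and 12.0 and 4.16 CPM in the 1,3BD libraries (log2 difference -1.63, SE 0.25, limma adjusted p = 0.000475). Both 1,3BD libraries were below both water libraries, though ObF1 water lay close to LnF1 1,3BD.

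Of the 5 genes of fatty acid synthesis, 2 rose and 3 did not pass, beside 19.2% higher and 24.8% lower of all genes tested. Acaca, which encodes the cytosolic acetyl-CoA carboxylase that commits acetyl-CoA to lipogenesis, had 119 and 128 CPM in the water libraries of LnF1 and ObF1 and 283 and 268 CPM in the 1,3BD libraries (log2 difference 1.15, SE 0.19, limma adjusted p = 0.000815). Acss2, which makes acetyl-CoA from acetate, had 16.5 and 10.6 CPM against 26.7 and 28.0 CPM (log2 difference 1.05, SE 0.25, limma adjusted p = 0.00691). For both, the 1,3BD libraries were above the water libraries. The steps on each side of the carboxylase did not pass. Acly, ATP-citrate lyase, stood at 323 and 297 CPM in the water libraries of LnF1 and ObF1 and at 274 and 242 CPM with 1,3BD, a log2 difference of -0.27 (SE 0.20). Fasn, fatty acid synthase, stood at 334 and 261 CPM in water and at 433 and 271 CPM with 1,3BD, a log2 difference of 0.22 (SE 0.20). Acacb, the mitochondrial carboxylase, remained low, between 4.95 and 6.26 CPM.

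Desaturases and elongases split as well, with 2 of 8 higher, 3 lower and 3 that did not pass. Beside these counts stand 19.2% of all genes tested called higher and 24.8% called lower. Scd1 (chromosome 19, 44394455 to 44407879, minus strand), a stearoyl-CoA desaturase that makes oleate, had 162 CPM in LnF1 water, 243 CPM in ObF1 water, 1909 CPM in LnF1 1,3BD and 2369 CPM in ObF1 1,3BD. The log2 difference was 3.42 (SE 0.21, limma adjusted p = 1.1e-06). Scd2, its neighbour on the chromosome (44293674 to 44306864, plus strand), was already abundant in water, with 1101 and 1382 CPM in LnF1 and ObF1, and had 2529 and 2323 CPM with 1,3BD (log2 difference 0.97, SE 0.24, limma adjusted p = 0.00702). Per kilobase of exon, Scd1 was at 0.165 and 0.196 times the level of Scd2 in the water libraries of LnF1 and ObF1 and at 0.843 and 1.14 times with 1,3BD. Fads3, a member of the fatty acid desaturase cluster, had 242 and 308 CPM in water and 113 and 81.5 CPM with 1,3BD (log2 difference -1.51, SE 0.23, limma adjusted p = 0.000454). The cluster also holds the delta-6 desaturase gene Fads2, with 182 and 202 CPM against 112 and 149 CPM (log2 difference -0.57, SE 0.19, limma adjusted p = 0.0343), and the delta-5 desaturase gene Fads1, with 240.3 and 243 CPM against 179.9 and 202 CPM, which did not pass (log2 difference -0.34, SE 0.19). The call of Fads2 ended with DESeq2 (log2 difference -0.57), with library totals (-0.32) and without parents in the model (-0.57). Elovl1, an elongase of very long chains, had 109.8 and 111 CPM in water and 61.8 and 63.9 CPM with 1,3BD (log2 difference -0.81, SE 0.19, limma adjusted p = 0.00638). Elovl5, which elongates polyunsaturated chains (0.46, SE 0.19), and Elovl6, which takes palmitate to stearate (0.56, SE 0.23), had positive log2 differences that did not pass (limma adjusted p = 0.0693 and 0.0691).

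Of the transcription-level controllers of lipogenesis, 1 of 3 could be tested. Srebf1, which encodes the sterol regulatory element binding protein 1, had 62.4 and 67.8 CPM in the water libraries of LnF1 and ObF1 and 55.4 and 31.0 CPM with 1,3BD. It did not pass (log2 difference -0.65, SE 0.25, limma adjusted p = 0.0568), and the 2 single-library differences were -0.17 in LnF1 and -1.13 in ObF1. Mlxipl, which encodes the carbohydrate response element binding protein, and Thrsp, a lipogenic protein of adipocytes and liver, had at most 1 read in any library. Other regulators of adipogenesis and lipogenesis were listed beside them. Of 13, 3 rose, 3 fell and 7 did not pass, where 19.2% of all genes tested were called higher and 24.8% lower. Pparg, the nuclear receptor that drives adipocyte genes, had a log2 difference of 1.42 (SE 0.28), Mbtps2, a protease that releases sterol regulatory element binding proteins, 0.93 (SE 0.21) and Cebpb 0.76 (SE 0.24). Cebpd (-1.20, SE 0.20), Srebf2 (-0.77, SE 0.21) and Nr1h2, a liver X receptor (-0.63, SE 0.21), fell. Cebpa did not pass for the drink (0.12, SE 0.22).

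Activation and triglyceride assembly gave the most calls in 1 direction: of 10 genes, 7 rose, 1 fell, 1 did not pass and 1 was not tested. Of all genes tested, 19.2% were called higher and 24.8% lower. The 3 long-chain acyl-CoA synthetases among the 44 genes rose, while Acsl5, counted outside them, fell (-0.63, SE 0.20). Acsl4 (chromosome X, 142317993 to 142390535, minus strand), which prefers arachidonate, had 86.5 and 98.4 CPM in the water libraries of LnF1 and ObF1 and 451 and 512 CPM with 1,3BD (log2 difference 2.38, SE 0.19, limma adjusted p = 5.63e-06). Acsl3, the synthetase found on nascent droplets, had 18.0 and 21.1 CPM against 44.1 and 81.1 CPM (1.62, SE 0.23), and Acsl1, the main synthetase of adipocytes, 19.7 and 19.1 CPM against 49.8 and 46.6 CPM (1.31, SE 0.22). For each of them the 1,3BD libraries were above the water libraries. Along the glycerol phosphate pathway, the log2 difference was 0.78 (SE 0.21, limma adjusted p = 0.0129) for Gpam, the mitochondrial acyltransferase of the opening step, from 71.0 and 92.1 CPM in water to 152 and 126 CPM with 1,3BD. Agpat2, the acyltransferase of the next step, fell from 21.9 and 18.0 CPM to 12.1 and 8.70 CPM (-0.95, SE 0.25, limma adjusted p = 0.00951). The phosphatidate phosphatases rose, Lpin1 from 32.7 and 25.9 CPM to 62.1 and 67.3 CPM (1.15, SE 0.22, limma adjusted p = 0.00175) and Lpin2 from 22.1 and 22.5 CPM to 46.7 and 41.8 CPM (0.98, SE 0.22, limma adjusted p = 0.00413). Gpam, Agpat2 and the Lpin genes, which act in consecutive steps, were thus called in opposite directions. Of 10 other triglyceride assembly genes tested outside the 44 genes, 1 rose, 2 fell and 7 did not pass. Of the acyltransferases that finish triglyceride, Dgat1 rose from 21.4 and 19.4 CPM to 52.3 and 31.9 CPM (1.00, SE 0.23, limma adjusted p = 0.00574), while Dgat2 lay between 6.49 and 8.52 CPM in the 4 libraries (log2 difference -0.0037, SE 0.29). Mogat2, the monoacylglycerol acyltransferase known from intestine, had 0.934 and 3.39 CPM in water and 0.108 and 0.0375 CPM with 1,3BD, the last being 1 read.

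Droplet genes of mature adipocytes rose from very low levels, while the broadly expressed Plin2 did not pass and Plin3 fell. Of 7 genes, 3 rose, 1 fell, 2 did not pass and 1 was not tested, beside 19.2% higher and 24.8% lower of all genes tested. Plin1, the perilipin of adipocyte droplets, had 0.0849 CPM in LnF1 water and 0.0434 CPM in ObF1 water, which are 2 reads and 1 read, and 5.09 and 1.84 CPM with 1,3BD, on 142 and 49 reads. The ratios were 60.0 in LnF1 (95% counting interval 16.3 to 500.1) and 42.3 in ObF1 (7.24 to 1704), and the log2 difference was 4.47 (SE 0.55, given without a p because only its 1,3BD libraries brought it past the filter). Plin4, a perilipin of adipocytes and muscle, had 1.66 and 0.652 CPM in water and 8.79 and 2.32 CPM with 1,3BD (2.04, SE 0.40, limma adjusted p = 0.00199). Tusc5, a membrane protein of adipocytes that acts in the trafficking of the glucose transporter GLUT4, had 1.27 and 1.35 CPM against 14.5 and 6.19 CPM (2.78, SE 0.39, limma adjusted p = 0.000296). The 1,3BD libraries were above the water libraries for all 3. Cidec, which fuses droplets in mature adipocytes, had 1 read in the 4 libraries together. Plin2, the perilipin of droplets in most cells, stood at 127 and 129.7 CPM in water and 223 and 150.3 CPM with 1,3BD and did not pass (0.51, SE 0.21, limma adjusted p = 0.0678). Plin3 fell from 96.7 and 81.5 CPM to 61.9 and 52.6 CPM (-0.64, SE 0.20, limma adjusted p = 0.0224), a call that ended with library totals (-0.39). Bscl2, which encodes seipin, a protein of droplet formation, lay between 33.6 and 51.2 CPM and did not pass (0.07, SE 0.22).

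Among the 5 lipolysis genes, the lipase of the opening step did not pass, its activator Abhd5 rose and its inhibitor G0s2 fell, while Hilpda, another inhibitor counted outside the 44 genes, rose (1.497, SE 0.23). Pnpla2, which encodes adipose triglyceride lipase, had 31.9 and 27.8 CPM in the water libraries of LnF1 and ObF1 and 31.1 and 30.3 CPM with 1,3BD (log2 difference 0.04, SE 0.22). Abhd5 (chromosome 9, 122351608 to 122381524, plus strand), which encodes the coactivator of that lipase, had 50.4 and 43.7 CPM in water and 163 and 113 CPM with 1,3BD (1.53, SE 0.20, limma adjusted p = 0.000163). G0s2 (chromosome 1, 193272161 to 193273217, minus strand), which encodes its inhibitor, had 6.92 and 2.17 CPM in water and 1.90 and 0.862 CPM with 1,3BD (-1.54, SE 0.39, limma adjusted p = 0.00879). The drink groups overlapped for neither gene, though LnF1 1,3BD and ObF1 water lay close together for G0s2. Exons of Abhd5 share 16.0% of their bases with another gene, whose part was not tested. Per kilobase of exon, Abhd5 stood at 0.802 and 0.796 times the level of Pnpla2 in the water libraries of LnF1 and ObF1 and at 2.66 and 1.90 times with 1,3BD. Lipe, hormone-sensitive lipase, had 5.43 and 2.74 CPM in water and 10.04 and 6.26 CPM with 1,3BD (1.02, SE 0.31, limma adjusted p = 0.0199). Mgll, monoglyceride lipase, had 23.6 and 27.6 CPM against 41.1 and 35.7 CPM and did not pass (0.58, SE 0.23, limma adjusted p = 0.0549). The calls of Lipe, Plin4, Pltp and G0s2 for the drink ended when parents were left out of the model.

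Other genes of the same pathways, from a list of 62 that holds no member, were counted in the same fit. Of 40 tested, 10 rose, 14 fell and 16 did not pass, with a median log2 difference of -0.13. Over all genes tested, 19.2% were called higher and 24.8% lower, as given above. In uptake, the lipoprotein receptor gene Vldlr (1.92, SE 0.20) and Angptl4, an inhibitor of lipoprotein lipase (1.46, SE 0.30), rose, and the fatty acid transporter gene Slc27a3 (-1.96, SE 0.32) and Cav1 of caveolae (-1.52, SE 0.21) fell. Among genes of synthesis and elongation, Hacd2 (2.08, SE 0.27) and Hacd3 (0.80, SE 0.21) rose and their relative Hacd1 fell (-2.21, SE 0.24), all of them dehydratases of chain elongation. Mid1ip1, which promotes polymerisation of acetyl-CoA carboxylase (-1.30, SE 0.25), and Aacs, which activates acetoacetate for lipid synthesis (-1.16, SE 0.21), fell. In triglyceride assembly Gpat3 rose (1.55, SE 0.45), and Agpat3 (-0.94, SE 0.21) and Acsl5 (-0.63, SE 0.20) fell. At the droplet, Hilpda, an inhibitor of adipose triglyceride lipase (1.497, SE 0.23), Fitm2, a protein of droplet budding (1.48, SE 0.26), and Hsd17b11 (0.75, SE 0.23) rose, and Cav2 fell (-0.84, SE 0.25). In the control of lipolysis, Pde3b, the phosphodiesterase through which insulin restrains lipolysis (2.25, SE 0.22), and Prkar2b, a regulatory subunit of protein kinase A (1.04, SE 0.22), rose. Adrb3, the adrenergic receptor of adipocytes, fell from 2.29 and 5.17 CPM in water to 0.538 and 0.562 CPM (-2.49, SE 0.46, and past the filter only through its water libraries), and Prkaca, the catalytic subunit, fell as well (-0.52, SE 0.19).

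The second comparison asked how ObF1 libraries differ from LnF1 libraries. Pltp was lower in ObF1 in both drinks, 2.54-fold in water (35.1 against 13.8 CPM) and 2.89-fold in 1,3BD (12.0 against 4.16 CPM). It was the 1 lipid gene of 39 that passed, with -1.43 as its log2 difference (SE 0.25, limma adjusted p = 0.0443), where 0.101% of all genes tested were called lower and 0.195% higher. No lipid gene was called higher in ObF1 with limma, edgeR, DESeq2 or limma voom. At an unadjusted p under 0.05, limma gave 2 higher and 6 lower, beside 5.36% and 5.48% of all genes. With edgeR there were 2 and 7, beside 5.36% and 5.28%. The counts were 3 and 8 with limma voom (5.99% and 5.31%) and 0 and 5 with DESeq2 (3.89% and 3.72%). The median log2 difference of the 39 genes was -0.12, against 0.01 over all genes tested.

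The call of Pltp lay near the threshold. Its adjusted p was 0.0499 with edgeR and 0.00278 with DESeq2. It did not pass with limma at a pseudocount of 1 CPM (adjusted p = 0.124) or with the filter at a mean of 5 CPM (0.103). Without drink in the model it did not pass either, and that model called 0 of all 12838 genes tested for parents. Without 1 library, with drink also out of the model, its log2 difference lay between -2.28 and -0.57. Those estimates include part of the drink difference of Pltp, so they cannot show whether its parental difference is stable. Exons of Pltp share 19.3% of their bases with Ctsa, which encodes a lysosomal carboxypeptidase, and whether the counting used strand to separate them is not stated. Ctsa, chosen after the values of Pltp were seen, had 222 and 204 CPM in the water libraries of LnF1 and ObF1 and 182 and 189 CPM with 1,3BD (log2 difference -0.03 for parents, SE 0.19).

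Several genes of the adipocyte droplet and of lipolysis had lower values in ObF1 in both drinks without passing. Plin4 on water had 1.66 CPM in LnF1 and 0.652 CPM in ObF1, and on 1,3BD 8.79 and 2.32 CPM (log2 difference -1.56, SE 0.40, limma adjusted p = 0.166). G0s2 stood at 6.92 against 2.17 CPM and 1.90 against 0.862 CPM (-1.35, SE 0.39, limma adjusted p = 0.221). Lipe stood at 5.43 against 2.74 CPM and 10.04 against 6.26 CPM (-0.82, SE 0.31, limma adjusted p = 0.367). In all 3 the ObF1 library was the lower one within each drink. Lpl on water had 347 CPM in LnF1 and 137 CPM in ObF1, and on 1,3BD 1555 and 1314 CPM (-0.79, SE 0.27, limma adjusted p = 0.319), with the wider gap between the water libraries. Without LnF1 1,3BD or ObF1 water, and with drink out of the model, the Lpl estimate was 0.29 and 0.84. Without LnF1 water or ObF1 1,3BD it was -1.87 and -2.42. In these fits the drinks are unbalanced between parents, so each estimate includes part of the drink difference of Lpl. They cannot show whether its parental difference is stable. Plin4 and Lpl passed when no filter on low values was used, with unchanged log2 differences. That fit called 196 genes higher and 156 lower in ObF1 of 26964, against 25 and 13 of 12838 with the filter. Fasn had 334 against 261 CPM and 433 against 271 CPM (-0.52, SE 0.20, limma adjusted p = 0.384). Cebpa, a transcription factor of adipocyte genes, was the 1 of 13 regulators called, and was lower (-1.39, SE 0.22, limma adjusted p = 0.0283).

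By role, the sign of the parental difference was not evenly spread. Over the 39 genes, 16 were lower in ObF1 in both drinks, 8 were higher in both and 15 changed sign between drinks, where 28.5% of all genes tested were lower in both and 30.2% higher in both. Of the 8 desaturases and elongases, 6 were higher in ObF1 in both drinks (Scd1, Elovl1, Elovl5, Elovl6, Fads1 and Fads2) and 0 lower in both, with log2 differences between -0.06 and 0.45 and none called. The 2 others that were higher in both were Acsl3 (0.56, SE 0.23) and Acsl4 (0.18, SE 0.19). Of the 6 droplet genes tested, 4 were lower in both drinks (Plin1, Plin3, Plin4 and Bscl2), as were 4 of 5 lipolysis genes (Lipe, Pnpla2, Abhd5 and G0s2), and 0 were higher in both in either group. These counts are over single pools and several differences are smaller than their standard error, among them those of Pnpla2, Fads1 and Elovl1.

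**Figure D3:**
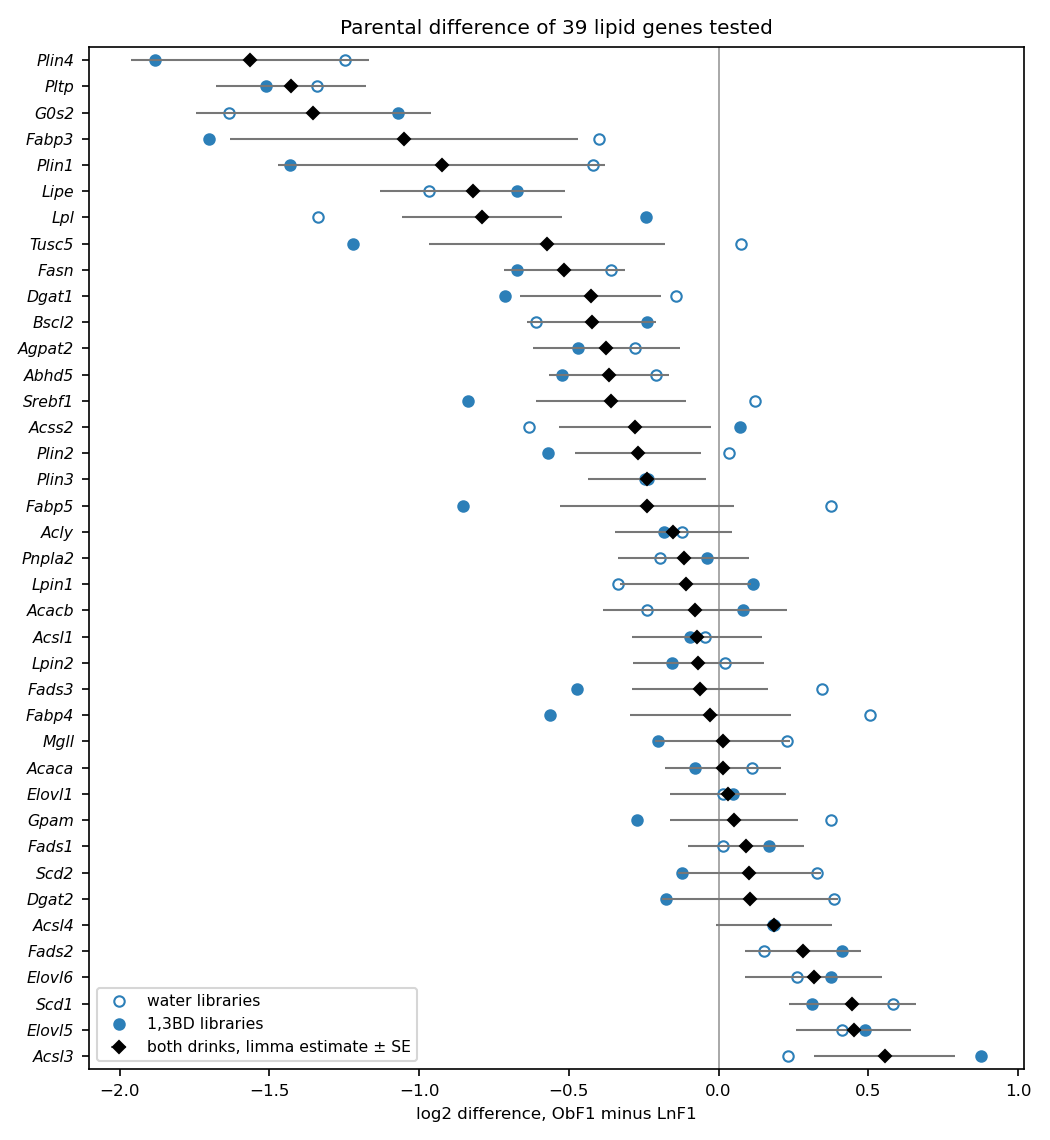
Log2 difference between ObF1 and LnF1 for the 39 lipid genes tested, ordered by the limma estimate over both drinks (black diamonds with standard error), with the difference between the water libraries (open circles) and between the 1,3BD libraries (filled circles). Plin4, Pltp and G0s2 have the lowest estimates and Acsl3 the highest; Pltp alone passed the test.

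The drink difference of some genes was unlike in LnF1 and ObF1, which could not be tested with 1 library per combination. Tusc5 rose 11.4-fold in LnF1 and 4.59-fold in ObF1, and Fabp4 rose 37.6-fold and 17.8-fold. Plin1, at 5.09 against 1.84 CPM, Plin4, at 8.79 against 2.32 CPM, Tusc5, at 14.5 against 6.19 CPM, and Fabp4, at 223 against 151 CPM, were all lower in the ObF1 than in the LnF1 1,3BD library. Lpl showed the opposite order of folds, 4.48 in LnF1 and 9.58 in ObF1, from a lower level in ObF1 water. Acsl4 was the same within counting error in both, with folds of 5.21 (95% counting interval 4.97 to 5.47) and 5.20 (4.98 to 5.44). Srebf1 had 0.889 times its water level in LnF1 (0.827 to 0.956) and 0.457 times in ObF1 (0.420 to 0.498).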

How the data were processed

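Bulk RNA from 4 pools was sequenced after TRIzol extraction and KAPA mRNA library construction, per the labels' protocols. The submitters' processing notes name mm10, edgeR and DESeq2 without role or version; aligner, counter, annotation and use of strand were not given in the sources used here. The table the authors deposited is named as raw counts, but holds a scaled signal: every value was a whole multiple of its column's smallest value (100% of values, relative tolerance 1e-06). The implied scaling factors, between 0.885 and 1.134, equalled TMM factors that edgeR gives on the recovered reads, so the unit is CPM of TMM-scaled libraries. Columns naming no drink were matched to water.

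The main test was limma 3.58.1 (R 4.3.3) on log2(CPM + 0.0796), worth 2 reads, which understates changes of genes with few reads, with a trend and robust moderation over genes reaching 1 CPM in 2 libraries or more. The model was additive in parents and drink, leaving 1 residual degree of freedom, with Benjamini-Hochberg adjustment and a threshold of 0.05. It was tested on simulated data. The alternatives were edgeR 4.0.16 and DESeq2 1.42.0 on recovered reads, limma voom, other scalings, filters and pseudocounts, moderation and covariates, and leaving out each library. On the recovered reads edgeR called 2401 genes higher and 3114 lower for drink, and 24 and 14 for parents. The p-values rest on how unlike a difference was between drinks or between parental groups, moderated across genes, and not on replicate pools. No source says that pools are independent litters. Folds are ratios of CPM with exact 95% intervals. Exon lengths, coordinates and overlaps come from GENCODE M21. Members, lists and motifs were chosen with earlier results of these data known. Named genes were all members, regulators and markers, and up to 3 called genes per direction in each list of other lipid genes. A gene that this rule also names is not reported here.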

Additional observations from a re-analysis of the deposited data

Results flagged for a closer look

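For 3 lipid genes at a mean of at least 5 CPM, the parental difference had opposite signs in the 2 drinks and the 2 differences were at least 1 apart on the log2 scale. The difference between them was not tested, since each combination had 1 library. Fabp4 was higher in ObF1 in water (8.47 against 5.94 CPM) and lower in 1,3BD (151 against 223 CPM), so that the log2 difference in 1,3BD less that in water was -1.069. Fabp5 likewise was higher in ObF1 in water (111.5 against 86.0 CPM) and lower in 1,3BD (9.94 against 18.0 CPM), at -1.226. For Tusc5 the ObF1 and LnF1 water libraries had 1.35 and 1.27 CPM, which differ by less than counting error (ratio 1.06, 95% counting interval 0.619 to 1.81), and the 1,3BD libraries 6.19 and 14.5 CPM, at -1.297.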

How the results depend on the processing

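Of the 27 lipid genes called for drink, 21 passed under every alternative with all 4 libraries in which they were tested. Fabp3 and Plin1 are among the 21, though each entered the test only through the drink where it was high. The fits without 1 library drop that library and the other factor together. Called genes never changed sign. With all 4 libraries and the other factor left out, 16 were higher and 6 lower. That fit called 1866 of all genes tested higher and 2522 lower, against 2466 and 3189 in the main fit. The counts of 18 higher and 9 lower were 10 to 16 and 3 to 7 in these fits, with 10 higher without ObF1 water, and 3, 5 and 4 lower without LnF1 water, ObF1 water and ObF1 1,3BD. The median log2 difference for drink, 0.56, was 0.80 with library totals and 0.47 to 0.69 without 1 library. For parents, the count of 1 lower became 0 with a pseudocount of 1 CPM, a filter at a mean of 5 CPM or drink left out. With drink left out, 0 of all 12838 genes tested were called in either direction. The count was 3 without a filter, and 0 were higher in all of these fits. The parental median, -0.12, was -0.50 without LnF1 water, 0.14 without LnF1 1,3BD, 0.06 without ObF1 water and -0.41 without ObF1 1,3BD, when the drink groups are unbalanced between parents. The labels give no replicate numbers to block on, and the additive model already compares drinks within parental groups. With 1 pool per combination, the number of pools limits precision, and Cd36, Mogat2, Cidec, Mlxipl and Thrsp were too scarce to test.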
